A study of Saccharomyces cerevisiae with 6 samples.

Results

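The 10 genes described here encode subunits of the yeast RNA exosome, the complex that degrades and trims RNA from its 3' end. They were chosen by ORF name from the 6212 ORFs listed in the deposited table of values, by a rule that uses no measured value. They are *SKI6* (YGR195W, also known as *RRP41*), *RRP42* (YDL111C), *RRP43* (YCR035C), *RRP45* (YDR280W), *RRP46* (YGR095C) and *MTR3* (YGR158C), *RRP4* (YHR069C) and *RRP40* (YOL142W), and *DIS3* (YOL021C, also known as *RRP44*) and *RRP6* (YOR001W). *CSL4* (YNL232W), which encodes the remaining core protein, was not among them and is given beside them.

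The exosome is built on a ring of proteins that resemble bacterial RNase PH but have lost its catalytic activity in yeast. A cap of RNA-binding proteins sits on the ring, and the RNA is threaded through both to Dis3, an exonuclease and endonuclease. Rrp6, a further exonuclease, is bound to the nuclear form only. The nuclear exosome trims the 3' end of the 5.8S rRNA precursor and removes faulty rRNA precursors, and the cytoplasmic form degrades mRNA. Rapamycin inhibits the TOR complex TORC1, and the fall in mRNAs for ribosomal proteins and ribosome assembly factors is a well known part of the yeast response to it.

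The study asked how the response to rapamycin changes in cells without the type 2C protein phosphatase Ptc6. Wild type cells were the laboratory strain BY4741, *ptc6* cells the same background with *PTC6* replaced by a drug resistance marker, and *ptc1 ptc6* cells lacked *PTC1*, the gene of another type 2C phosphatase, as well. Cells of each strain in rich medium (YPD) received 200 ng/ml rapamycin for 1 h or were mock-treated. Treated and mock-treated RNA of a strain were hybridized together on 2-colour arrays of PCR-amplified ORFs. This was done once with each dye orientation, which gave 6 arrays for 3 strains. All values below are log2 ratios of rapamycin-treated to mock-treated cells of the same strain, so that -1 is a 2-fold lower signal in rapamycin-treated cells. No value compares the mock-treated strains with each other. Figure axes call the mock-treated cells untreated. The paper calls these duplicate experiments and the sample titles number them 1 and 2, but neither says whether they came from separate cultures. The 2 arrays of a strain were taken here as a dye swap of 1 pair of RNA samples, and each strain as 1 biological replicate. No test between strains was therefore made, no difference has a replicate check, and the spread between arrays may be technical.

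Per array, 3620 to 4546 ORFs had a value, and the median log2 ratio lay between 0.01 and 0.10. The arrays of a strain differed by a median of 0.21 in wild type, 0.22 in *ptc6* and 0.28 in *ptc1 ptc6* cells, and 95% of ORFs differed by no more than 0.67, 0.60 and 0.91, respectively. The deleted gene *PTC6* was read in wild type cells only (1.11 and 0.62). *PTC1* was read once, on array 2 of wild type cells (-0.28). The values of *ptc1 ptc6* and wild type cells were not related across the ORFs of chromosome XII (r = 0.0156) and less related on chromosome XIII (r = 0.543) than on the other 14 chromosomes (0.939 to 0.973). Values of *ptc6* and wild type cells were related on both (r = 0.972 and 0.973). As examples chosen after their values were seen, the 40S assembly factor genes *NOP56* and *SOF1* on chromosome XII had means of 0.01 and 0.31 in wild type but -3.33 and -2.64 in *ptc1 ptc6* cells. Values listed for genes of these chromosomes may therefore belong to other genes in some strains, and such genes are marked below. None of the 10 subunit genes lies there.

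All 10 subunit mRNAs were lower after rapamycin in every strain, and the fall was modest. Of the 58 values measured for them on the 6 arrays, all were below 0, and the lowest was -1.92. Across all ORFs, 44.4% were below 0 on both arrays in wild type cells, 39.7% in *ptc6* cells and 39.6% in *ptc1 ptc6* cells. The median over the 8 subunits with a value on both wild type arrays was -1.08, and over all 10 subunits it was -0.84 for *ptc6* and -0.98 for *ptc1 ptc6* cells, beside medians of 0.02, 0.07 and 0.03 over all ORFs. A mean at or below -1 was reached by 4 of 8 subunits in wild type cells, 3 of 10 in *ptc6* and 4 of 10 in *ptc1 ptc6* cells. Over all ORFs this share was 18.9%, 14.3% and 15.2%, respectively, and 18.1%, 13.8% and 14.6% without chromosomes XII and XIII. The values were crowded around this limit: *RRP40* lay exactly on it in *ptc6* cells and was counted (2 of 10 with means strictly below it), and *RRP42* lay just above it in *ptc1 ptc6* cells and was not. On array 2 of *ptc6* cells alone, 1 subunit passed, and the share over all ORFs on that array was not computed.

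**Figure D1:**
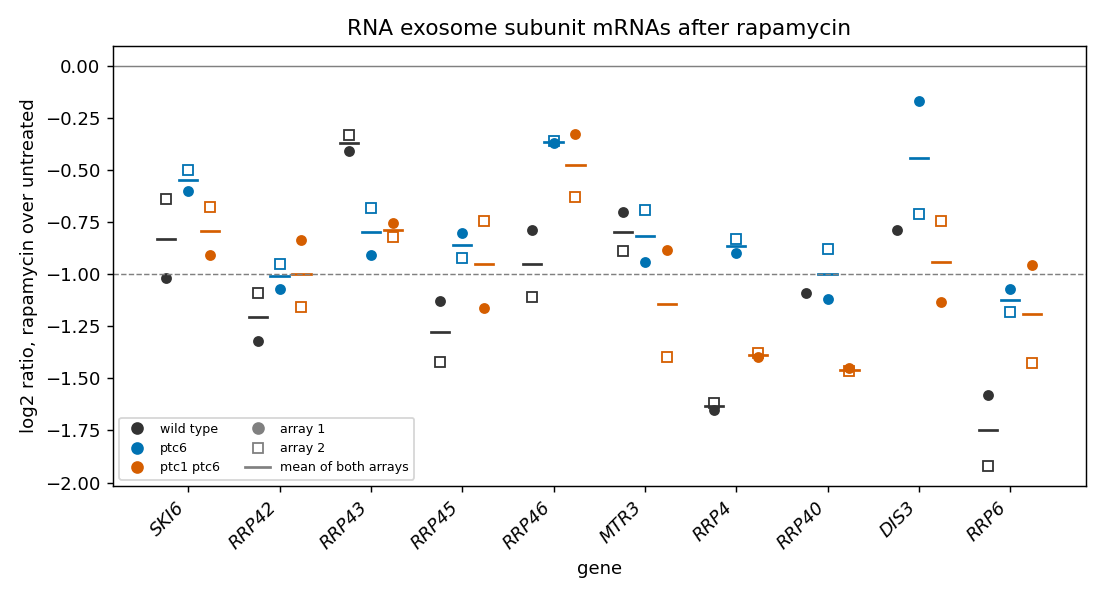
Change after rapamycin, as a log2 ratio to mock-treated cells (Y axis), for each exosome subunit gene (X axis, ring subunits first, then cap and catalytic subunits). Filled circles are array 1, open squares array 2 and bars their mean, and the dashed line is a 2-fold fall. All values lie below 0, and the wild type means run from -1.75 for *RRP6* to -0.37 for *RRP43*.

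The subunit with the strongest response in wild type cells was *RRP6*, the gene of the nuclear exonuclease. Its log2 ratios, array 1 first, were -1.58 and -1.92 in wild type, -1.07 and -1.18 in *ptc6*, and -0.95 and -1.43 in *ptc1 ptc6* cells. Both mutants were above both wild type values, and they overlapped with each other. As means this was a 3.36-fold fall in wild type, 2.18-fold in *ptc6* and 2.28-fold in *ptc1 ptc6* cells. *DIS3*, the gene of the catalytic subunit found in both compartments, fell less. It had -0.79 on wild type array 1 and no value on array 2, beside -0.17 and -0.71 in *ptc6* and -1.13 and -0.75 in *ptc1 ptc6* cells. The 2 *ptc6* arrays differed by 0.54, the largest gap of any subunit in that strain, so its *ptc6* mean of -0.44 is the least precise. Both *ptc1 ptc6* values were below both *ptc6* values, but with a difference of only -0.035 between the nearest arrays.

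Of the cap genes, *RRP4* gave nearly the same value on both arrays of each strain. This gene, which encodes a cap protein with RNA-binding domains, had -1.65 and -1.62 in wild type, -0.90 and -0.83 in *ptc6*, and -1.40 and -1.38 in *ptc1 ptc6* cells. The 3 strains were separated, with the arrays of a strain no more than 0.07 apart. The fall was 3.11-fold in wild type cells, 1.82-fold in *ptc6* cells and 2.62-fold in *ptc1 ptc6* cells. *RRP40*, also a cap gene, had -1.09 on wild type array 1 and no value on array 2, beside -1.12 and -0.88 in *ptc6* and -1.45 and -1.46 in *ptc1 ptc6* cells. In *ptc1 ptc6* cells it was the lowest of the 10 subunits, below both *ptc6* values and the single wild type value.

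The 6 ring genes fell less than *RRP4* and *RRP6* in wild type cells, with means between -1.28 and -0.37 (median -0.89). Ring subunits pair into dimers in the assembled complex, Rrp41 with Rrp45, Rrp42 with Mtr3, and Rrp43 with Rrp46, and in wild type cells the arrays of no pair of genes overlapped. *RRP45* had -1.13 and -1.42 in wild type, -0.80 and -0.92 in *ptc6*, and -1.16 and -0.74 in *ptc1 ptc6* cells. *SKI6*, the gene of its partner Rrp41, had -1.02 and -0.64 in wild type, -0.60 and -0.50 in *ptc6*, and -0.91 and -0.68 in *ptc1 ptc6* cells. For both genes *ptc6* values were above wild type values, and *ptc1 ptc6* values overlapped with wild type.

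*RRP42* had -1.32 and -1.09 in wild type, -1.07 and -0.95 in *ptc6*, and -0.84 and -1.16 in *ptc1 ptc6* cells. Its *ptc6* values were above the wild type values by as little as 0.02 between the nearest arrays. *MTR3*, the gene of its partner, had -0.70 and -0.89 in wild type, -0.94 and -0.69 in *ptc6*, and -0.89 and -1.40 in *ptc1 ptc6* cells. The strains overlapped, and the gap of 0.51 between the *ptc1 ptc6* arrays was the largest of any subunit in that strain.

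*RRP43* and *RRP46*, genes of the last dimer, differed from wild type in opposite directions. *RRP46* had -0.79 and -1.11 in wild type, -0.37 and -0.36 in *ptc6*, and -0.33 and -0.63 in *ptc1 ptc6* cells. Its fall was weaker in both mutants than on either wild type array. *RRP43* had -0.41 and -0.33 in wild type, -0.91 and -0.68 in *ptc6*, and -0.76 and -0.82 in *ptc1 ptc6* cells. It was the least repressed subunit in wild type cells (1.29-fold) and fell further in both mutants (1.74-fold in *ptc6* and 1.73-fold in *ptc1 ptc6* cells), with no overlap with the wild type arrays. It was the 1 subunit with a stronger response on both arrays of the mutants. *CSL4*, the remaining cap gene, had 2 values in all, -0.52 on *ptc6* array 2 and -0.66 on *ptc1 ptc6* array 1.

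Ordered by their wild type means, the 8 subunits with both values ran *RRP6*, *RRP4*, *RRP45*, *RRP42*, *RRP46*, *SKI6*, *MTR3* and *RRP43*. Only *RRP4* and *RRP45*, and *MTR3* and *RRP43*, were neighbours whose arrays did not overlap. The subunits were less spread in the mutants. For the 8 genes with all 6 values, the range of the means was 1.38 in wild type, 0.76 in *ptc6* and 0.91 in *ptc1 ptc6* cells, with standard deviations across genes of 0.46, 0.24 and 0.28. The standard deviation over all measured ORFs was 1.44 in wild type cells, 1.11 in *ptc6* and 1.20 in *ptc1 ptc6* cells.

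In *ptc6* cells, rapamycin lowered most of the subunit mRNAs less than in wild type cells. With 4 values per gene, both *ptc6* values were above both wild type values for 6 of 8 subunits (*SKI6*, *RRP42*, *RRP45*, *RRP46*, *RRP4* and *RRP6*), below them for *RRP43*, and overlapped for *MTR3*. The nearest arrays were only 0.02 apart for *RRP42* and 0.04 for *SKI6*. With each array centred on its median, 5 of 8 subunits were higher, a setting for which the share over all ORFs was not computed. Over all 3323 ORFs the shares were 30.7% higher and 17.5% lower. Of the 1663 ORFs with a mean below 0 in wild type cells, 51.4% were higher in this way and 4.57% lower (49.6% and 5.20% without chromosomes XII and XIII). The wild type values that selected these ORFs also entered the comparison, which by itself can raise the share called higher. Of the 40S assembly factors 24 of 33 were higher and 1 lower, and of the 60S assembly factors 34 of 43 were higher and 2 lower. The subunits were thus not set apart from these lists. The median difference of *ptc6* from wild type was 0.35 over the 8 subunits and 0.05 over all ORFs, and the largest were those of *RRP4* (0.77), *RRP6* (0.63) and *RRP46* (0.59). When arrays with the same dye on the rapamycin-treated RNA were set against each other, the difference had the same sign in both dyes for each of these genes except *MTR3* (-0.24 with Cy3 and 0.20 with Cy5). For *RRP4* it was 0.75 and 0.79, and for *RRP43* -0.50 and -0.35.

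For genes that fell at least 2-fold in wild type cells, the share of the response kept in the mutant was taken as the mutant log2 ratio over the wild type log2 ratio. The same wild type value selected the genes and was the divisor, which by itself can lower these shares. *SKI6* and *RRP46*, with a weaker mean fall in *ptc6* cells, and *RRP43* and *MTR3*, without one, did not enter. *RRP4* kept 52.9% in *ptc6* cells, *RRP6* 64.3%, *RRP45* 67.5% and *RRP42* 83.8%. Their median of 65.9% stood beside 75.5% over all 639 such ORFs, 67.6% for 24 40S assembly factors and 66.9% for 39 60S assembly factors.

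In *ptc1 ptc6* cells, fewer subunits were separated from wild type. Both arrays were higher for *RRP4*, *RRP6* and *RRP46* (3 of 8), lower for *RRP43*, and overlapped for the remaining 4. Over all ORFs 21.7% were higher and 25.0% lower. Of 1600 ORFs with a mean below 0 in wild type cells, 33.5% were higher and 14.5% lower, and without chromosomes XII and XIII 30.0% and 13.6%, which are close to the shares of the subunits. These ORFs too were selected by the wild type values compared, while the subunits were chosen by name. The median difference from wild type was 0.23 over the 8 subunits and -0.03 over all ORFs. By dye, *RRP4* (0.27 with Cy3 and 0.22 with Cy5) and *RRP43* (-0.41 and -0.43) were even. *RRP6* (0.15 and 0.97) and *RRP46* (0.16 and 0.78) differed from wild type mainly with Cy5, *MTR3* with Cy3 only (-0.70 and 0.004), and *SKI6* changed sign (0.34 and -0.27). Of the subunits past 2-fold in wild type cells, *RRP4* kept 84.9% of its response, *RRP42* 82.8%, *RRP45* 74.7% and *RRP6* 68.0%. Under the same selection by the wild type value, their median of 78.8% stood beside 87.3% over 592 ORFs. It was 82.3% for 25 40S and 84.9% for 36 60S assembly factors. These comparison sets include chromosomes XII and XIII, and their shares were not computed without them. Both contrasts use the same wild type arrays and are therefore not independent.

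Set directly against *ptc6* cells, *ptc1 ptc6* cells had lower values on both arrays for *RRP4*, *RRP40*, *DIS3* and *SKI6*. The mean differences of the cap genes were -0.52 for *RRP4* and -0.46 for *RRP40*. Between the nearest arrays *DIS3* differed by only -0.035 and *SKI6* by -0.08. The other 6 overlapped and none was higher on both arrays. Over all ORFs 27.9% were lower and 14.3% higher. Among the 1628 ORFs with a mean below 0 in *ptc6* cells, 32.4% were lower and 14.1% higher, and without chromosomes XII and XIII 33.2% and 8.13%. *RRP6*, *RRP42*, *RRP43* and *RRP45* had means within 0.10 of each other in the 2 mutants.

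**Figure D2:**
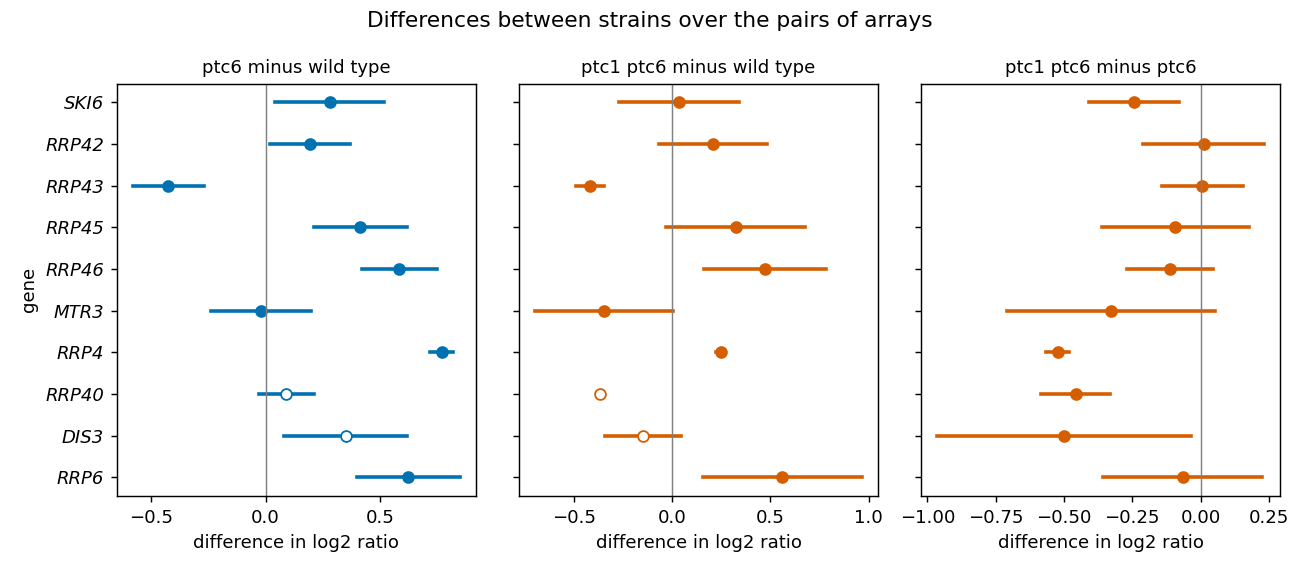
Difference in log2 ratio between strains (X axis) for each subunit gene (Y axis). Points are means, and lines run from the smallest to the largest difference that single arrays gave, with open points where wild type array 2 had no value. *RRP4* was 0.77 above wild type in *ptc6* cells and 0.25 above it in *ptc1 ptc6* cells, and *RRP43* was 0.43 and 0.42 below it.

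The proteins that bring RNA to the nuclear exosome had more unequal changes in their mRNAs than its subunits. The standard deviation across genes was 1.59 against 0.46 in wild type cells, beside 1.44 over all ORFs. The 1.59 includes *SEN1*, listed on chromosome XII, and was not computed without it. From a list of 10 cofactor genes, 8 had a value on both wild type arrays. The largest falls were those of *MTR4* and *NRD1*. *MTR4* encodes the helicase that feeds RNA into the exosome, and its log2 ratios were -3.69 and -3.62 in wild type, -2.02 and -2.38 in *ptc6*, and -2.44 and -2.34 in *ptc1 ptc6* cells. This was a 12.6-fold fall in wild type cells, and the response was weaker on all 4 mutant arrays. *NRD1*, whose product ends transcription of short non-coding RNAs and hands them to the exosome, had -3.49 and -3.35 in wild type, -3.01 and -2.66 in *ptc6*, and -3.59 and -3.70 in *ptc1 ptc6* cells. It was thus higher in *ptc6* cells and slightly lower in *ptc1 ptc6* cells than on either wild type array.

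*LRP1* (also known as *RRP47*) encodes the partner that stabilizes Rrp6. It had -1.52 and -1.70 in wild type, -0.65 and -0.96 in *ptc6*, and -1.38 and -1.01 in *ptc1 ptc6* cells. As with *RRP6*, both mutants were above both wild type values, and *LRP1* kept 50.0% and 74.1% of its response. *PAP2* (also known as *TRF4*), the gene of the poly(A) polymerase of the TRAMP complex, had -2.06 and -1.55 in wild type cells, no value in *ptc6* cells and -1.37 on *ptc1 ptc6* array 1. The genes for the RNA-binding TRAMP proteins had means of -0.52, -0.42 and -0.43 (*AIR1*) and -0.49, -0.68 and -0.77 (*AIR2*) in wild type, *ptc6* and *ptc1 ptc6* cells. *NAB3*, which acts with Nrd1, had means of -0.45, -0.29 and 0.11 in the same order. *SEN1*, the helicase gene of the same termination complex, is listed on chromosome XII and had 0.93 and 1.05 in wild type but -0.91 and -0.30 in *ptc1 ptc6* cells. *MPP6* and *TRF5* had no value on any array. In all, 4 of 8 cofactor genes passed 2-fold repression in wild type, 2 of 7 in *ptc6* and 3 of 7 in *ptc1 ptc6* cells.

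**Figure D3:**
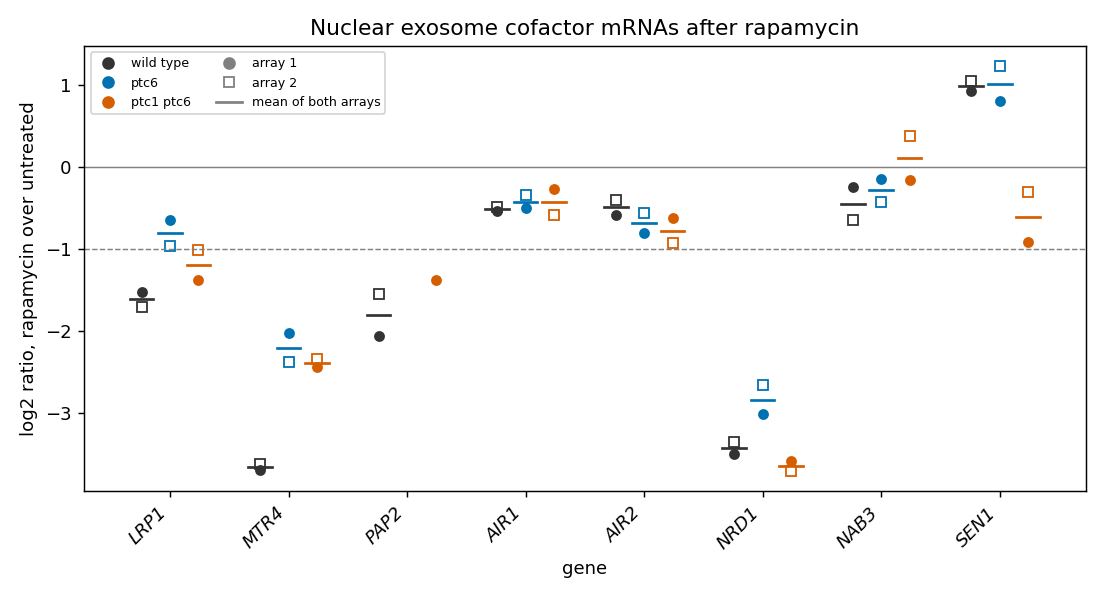
Change after rapamycin, as a log2 ratio to mock-treated cells (Y axis), for the nuclear cofactor genes with a value (X axis). Filled circles are array 1, open squares array 2, bars their mean and the dashed line a 2-fold fall. *MTR4* and *NRD1* stand at means of -3.66 and -3.42 in wild type cells, and *SEN1*, listed on chromosome XII, is above 0 in wild type and *ptc6* cells only.

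No gene for the cytoplasmic partners passed 2-fold repression. Of the Ski complex genes, which deliver mRNA to the cytoplasmic exosome, *SKI8* had -0.43 and -0.23 in wild type cells and *SKI3* 0.22 and -0.13. In the mutants their means were 0.02 and 0.52 (*ptc6*) and -0.05 and 0.22 (*ptc1 ptc6*). *SKI2*, listed on chromosome XII, had values in *ptc1 ptc6* cells only (0.15 and 0.57), and *SKI7* had none. Among genes for decapping and 5'-to-3' decay of mRNA, none of 7 passed 2-fold in wild type cells (median -0.20), from *DCP1*, a decapping enzyme subunit (mean -0.84), and *EDC3*, an enhancer of decapping (-0.40), to *PAT1*, a decapping activator (-0.16), and *XRN1*, the cytoplasmic 5'-to-3' exonuclease (-0.03). Of 7 deadenylase genes none passed (median 0.03), with *NOT3* (-0.54) and *CDC36* (-0.21), for subunits of the Ccr4-Not complex, lowest, and *POP2*, a deadenylase gene of that complex (0.22), and *PAN3*, a subunit gene of another deadenylase (0.22), highest.

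Nucleases that act on rRNA or tRNA precursors were in part repressed. Of the genes for RNase P and RNase MRP, 3 had both wild type values, all for subunits shared by the 2 enzymes, *POP5* (mean -1.18), *RPP1* (-0.53) and *POP1* (-0.22). Of other nucleases and partners with a role in rRNA maturation, 4 of 6 passed 2-fold in wild type cells, and 2 of 3 outside chromosomes XII and XIII. The lowest were the exonuclease family genes *REX2* (-2.65, listed on chromosome XII) and *REX4* (-2.12, with its arrays at -1.61 and -2.62), and the highest were *RAI1*, the gene of the partner of the Rat1 exonuclease (-0.93), and *GRC3*, a polynucleotide kinase gene (0.25, listed on chromosome XII).

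The ribosome assembly factors, the most similar group by process, fell further than the exosome subunits. Their lists were written after these values had been seen. For 36 40S assembly factors the wild type median was -2.31, with 72.2% past 2-fold, and for 43 60S assembly factors it was -2.79, with 90.7% past 2-fold. The lowest wild type mean among the subunits, -1.75 for *RRP6*, lay above both medians. The 40S and 60S medians were -1.67 and -2.03 for *ptc6* and -2.27 and -1.99 for *ptc1 ptc6* cells.

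**Figure D4:**
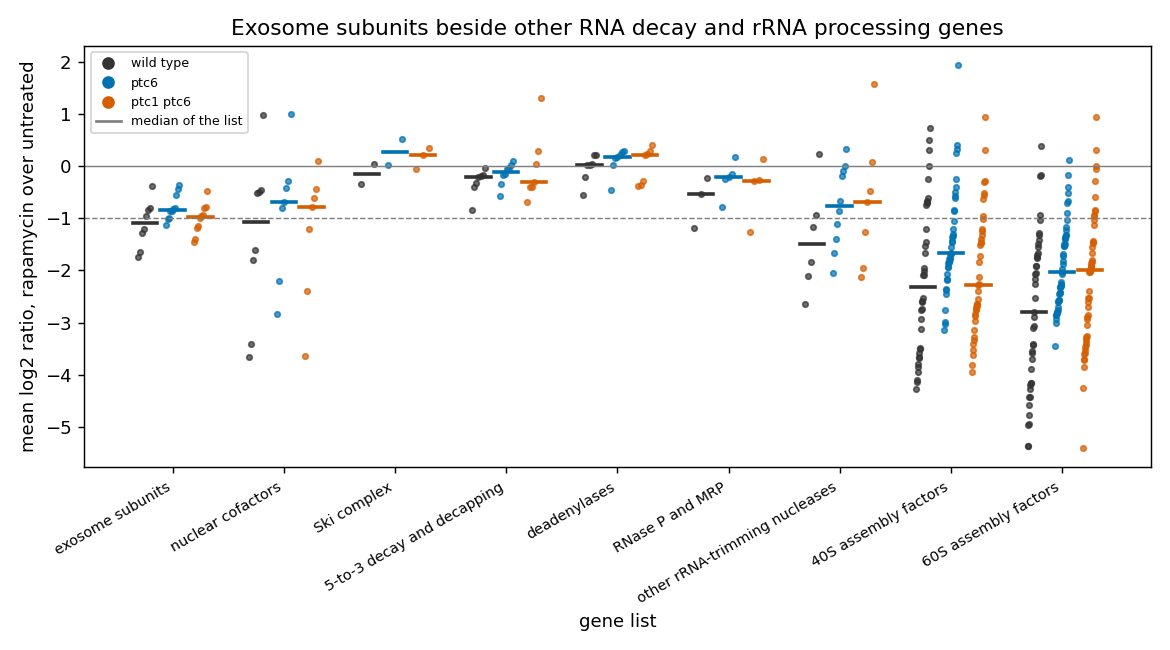
Mean change after rapamycin, as a log2 ratio to mock-treated cells (Y axis), for each gene of 9 lists (X axis) by strain, with bars at the medians and a dashed line at a 2-fold fall. Exosome subunits lie between the mRNA decay lists near 0 and the 40S and 60S assembly factors, whose wild type medians are -2.31 and -2.79.

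The genes whose 6 values were nearest to the median profile of the subunits were not exosome genes. Over 2734 ORFs with all values outside chromosomes XII and XIII, the Euclidean distance was smallest for YOL029C (0.21), *GCD10* (0.27), a tRNA methyltransferase subunit gene, *PAM17* (0.27), which encodes a part of the mitochondrial import motor, YDR541C (0.31) and *FEX2* (0.35), a fluoride exporter gene with a close paralog. Of the subunits, *RRP42* was nearest, at rank 24 (0.41), and *RRP6* farthest, at rank 389 (1.16). With an array left out, 2 to 4 of these 5 genes were among the nearest.

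Of the 10 subunit genes, 6 have an upstream neighbour on the opposite strand, transcribed away from it. *XKS1*, the xylulokinase gene beside *SKI6*, was above 0 on every array with a value (1.03 to 1.73). *TRM5*, a tRNA methyltransferase gene beside *RRP4*, had -1.35 and -0.23 in wild type cells, a gap far above that of *RRP4*. *RBK1*, the ribokinase gene beside *RRP43*, had means of -0.45, -0.59 and -0.38 in wild type, *ptc6* and *ptc1 ptc6* cells. For *RIB4*, a riboflavin synthesis gene beside *RRP40*, they were -0.48, -0.21 and -0.57, and for *TAT2*, the tryptophan permease gene beside *DIS3*, -0.67, -0.38 and -0.95. *TPC1*, a mitochondrial thiamine pyrophosphate carrier gene beside *RRP46*, had no value.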

How the data were processed

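The authors scanned 2-colour arrays of PCR-amplified ORFs with a ScanArray 4000, read spots with GenePix Pro 6.0, left out spots under 120 µm or 150 fluorescence units, and pre-processed the data with GEPAS 3.0. They deposited 1 log2 ratio (rapamycin-treated over mock-treated) per ORF and array. The method of normalization is not given in the sources used here, so values were used as deposited. Intensities were not used here, so signal over background is unknown, and precision is limited by how few arrays there are. The values of *ptc1 ptc6* cells carry more decimals than the others.

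A gene was used in a strain when both arrays had a value, and its value was their mean. Repressed genes were those at or below -1, while the limit in the methods leaves out a fall of exactly 2-fold, which concerns *RRP40* in *ptc6* cells. Strains were compared by whether their arrays overlapped. No test was made, since each strain was taken as 1 biological replicate. Per the labels, Cy3 marked the rapamycin-treated RNA on array 1 of wild type and *ptc6* cells and on array 2 of *ptc1 ptc6* cells, and Cy5 on the others. Gene names came from the R64 RefSeq table, which matched 5639 ORF names and gave neighbours, with strand from the ORF name. No sequences were analysed here.

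The members and lists were chosen with earlier results of these data known. The lists were written from general knowledge of yeast genes, those of 40S and 60S assembly factors after seeing the values. Genes named are all subunits, cofactors, Ski genes and divergent neighbours, the 5 nearest profiles, and the 2 lowest and 2 highest of the shorter lists. Alternatives were other thresholds, centred arrays, linear means, fewer or more arrays per gene, *CSL4* added, and each array left out. The calls of repression and of overlap were tested on simulated data. The planted differences were larger than those of the subunits and the noise smaller than observed, so the test does not show how calls perform at the sizes reported. Python 3.11.15, numpy 2.4.6, pandas 2.3.3 and matplotlib 3.10.9 were used.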

Additional observations from a re-analysis of the deposited data

Results flagged for a closer look

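Among the genes named, *SEN1* and *PAT1* had arrays on opposite sides of 0 in different strains, and neither difference was tested. *SEN1* was 1.60 log2 units lower (-1.60) in *ptc1 ptc6* than in wild type cells and 1.62 lower (-1.62) than in *ptc6* cells. It is listed on chromosome XII, where *ptc1 ptc6* and wild type values were not related, and the part of this in the result was not tested. *PAT1* was 0.46 higher in *ptc1 ptc6* than in wild type cells, with values of -0.13 and -0.19 in wild type and 0.26 and 0.34 in *ptc1 ptc6* cells. No exosome subunit had an array above 0.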

How the results depend on the processing

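The number of repressed subunits depended on the threshold. In wild type, *ptc6* and *ptc1 ptc6* cells it was 7 of 8, 7 of 10 and 9 of 10 at 1.5-fold. At 3-fold it was 2 of 8, 0 of 10 and 0 of 10. The shares over all ORFs were computed only for the 2-fold limit on the mean. The counts at these 2 thresholds, and the next ones on each array or with an array left out, have no background beside them. With 2-fold required on each array it was 4 of 8 in wild type, 1 of 10 in *ptc6* and 2 of 10 in *ptc1 ptc6* cells. In wild type cells it was 5 of 8 without array 1 and 6 of 10 without array 2. With an array left out it ran from 1 to 3 of 10 in *ptc6* and 4 to 5 of 10 in *ptc1 ptc6* cells. The median of the subunits moved to -1.02 in wild type cells with a value on at least 1 array, and to -1.02 in *ptc1 ptc6* cells with centred arrays (-0.99 to -0.93 with an array left out). The median difference from wild type became 0.31 in *ptc6* cells with centred arrays, and 0.12 in *ptc1 ptc6* cells with a value on at least 1 array, which adds *RRP40* and *DIS3*. The counts of subunits lower on all arrays than in wild type ran from 1 to 2 (*ptc6*) and 1 to 3 (*ptc1 ptc6*) with an array left out, and of those higher in *ptc1 ptc6* cells from 4 to 5, since fewer arrays overlap less often. In *ptc6* cells the count of higher subunits was 5 with centred arrays and 6 to 7 with an array left out. Shares over all ORFs were not computed for these counts. Of the subunits lower than in wild type, *RRP43* was the 1 found with all arrays, in both mutants. The share of the response kept had medians of 58.6% to 73.7% (*ptc6*) and 67.1% to 82.9% (*ptc1 ptc6*) with an array left out, the 73.7% being that without array 2 of wild type cells and the 67.1% that without their array 1. No count or median recomputed for the subunits changed direction. Differences of single subunits were recomputed by dye, where those of *SKI6* and *MTR3* from wild type changed sign, as given above. Over all pairs of single arrays, further differences from wild type spanned 0. In *ptc1 ptc6* cells these were *RRP42* (-0.07 to 0.48), *RRP45* (-0.03 to 0.68) and *DIS3* (-0.34 to 0.045). In *ptc6* cells it was *RRP40* (-0.03 to 0.21). Without chromosomes XII and XIII the wild type medians were -1.61 for the cofactors and -2.60 for the 40S assembly factors. No paired analysis was possible because the 2 arrays of a strain were taken as a dye swap of 1 pair of RNA samples and no test was made.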
